A study of Mus musculus with 2 samples.

Results

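Immediate early genes are switched on within minutes of a stimulus, without the need for new protein, and their RNAs are short-lived. They encode mainly transcription factors, such as Fos and Jun, which pair to form AP-1, and the Egr zinc finger proteins. A further set encodes brakes that shorten the response, such as the RNA-destabilizing protein Zfp36 and the MAP kinase phosphatase Dusp1. In the lens, growth factor signaling through MAP kinases is known to drive epithelial proliferation and fiber differentiation. The same genes are also known to respond to handling and enzymatic dissociation of tissue.

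A fixed list of 36 immediate early and rapid response genes was examined among the 32285 genes counted, and all 36 were found by symbol. The samples were 2 pools (replicate 1 and replicate 2) of lens epithelium from wild-type C57BL/6N pups at postnatal day (P) 2, each from 4 to 8 pups, measured by droplet single-cell RNA sequencing of transcript 3′ ends. Every cell had been exposed to trypsin and collagenase/dispase at 37°C, and no undissociated sample was analyzed here, so that RNA present in the eye and RNA induced during dissociation cannot be told apart. Because there were 2 pools, counts were summed per pool and cell class, and cells were not treated as replicates, so that the tests have at most 2 values per class.

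The pools held 12314 and 9425 barcodes with 93839132 and 86033032 unique molecular identifiers (UMIs), and 27 barcode sequences occurred in both. After filters on depth, mitochondrial share and predicted doublets, 14490 of the 18119 remaining cells fell into 1 of 4 marker gates, none of which used a member gene. Lens cells (8122 and 5403 in replicates 1 and 2) carried the crystallins Cryaa and Cryab, at a summed 79626 and 75824 UMIs per 1000000 of the gate's UMIs (CPM) against 1689 to 3405 CPM in the other gates. Endothelial cells (331 and 209), mural cells, which wrap small vessels (164 and 212), and macrophages (23 and 26) were named from the marker lists that set their gates, as were lens cells, so that those lists are no independent check. The mural gate also held 295.01 and 323.1 CPM of fibroblast markers, from 2 of the 4 genes listed, whose part in the mural levels was not tested. Median UMIs per cell were 6152 and 7991 in the lens gate and between 3016 and 4323 in the other 3 gates. The summed level of 12 division markers differed between replicates in endothelial (1210.0 and 326.8 CPM, respectively), mural (632.2 and 74.4 CPM) and macrophage cells (1329.5 and 299.8 CPM), and its part in the levels below was not tested. From crystallin RNA outside the lens gate, free lens RNA was estimated to make up 2.19% to 4.38% of the lens level in the other gates.

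Promoters are shown for 4 members that carry the comparisons among lens cells: Fos (ENSMUSG00000021250), Btg2 (ENSMUSG00000020423) and Dusp1 (ENSMUSG00000024190), which were lower in differentiating cells, and Atf3 (ENSMUSG00000026628), which was higher. The sequences are the 250 bases before a RefSeq start site (GRCm38.p6), 5′ to 3′ on the strand of the gene, and capitals mark the letters TGACG, the core of the cyclic AMP response element (CRE), or their reverse complement.
Fos, chr12:85473640-85473889, plus strand: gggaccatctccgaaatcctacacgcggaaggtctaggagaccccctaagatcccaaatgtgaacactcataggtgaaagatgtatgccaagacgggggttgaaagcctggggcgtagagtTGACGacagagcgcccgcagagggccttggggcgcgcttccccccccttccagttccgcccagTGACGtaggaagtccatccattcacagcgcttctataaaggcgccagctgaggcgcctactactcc
Btg2, chr1:134079156-134079405, minus strand: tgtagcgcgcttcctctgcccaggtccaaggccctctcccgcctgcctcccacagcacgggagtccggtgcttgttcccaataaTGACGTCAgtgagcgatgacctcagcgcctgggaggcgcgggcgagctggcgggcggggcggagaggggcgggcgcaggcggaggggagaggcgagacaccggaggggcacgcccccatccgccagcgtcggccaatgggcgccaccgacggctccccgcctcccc
Dusp1, chr17:26508473-26508722, minus strand: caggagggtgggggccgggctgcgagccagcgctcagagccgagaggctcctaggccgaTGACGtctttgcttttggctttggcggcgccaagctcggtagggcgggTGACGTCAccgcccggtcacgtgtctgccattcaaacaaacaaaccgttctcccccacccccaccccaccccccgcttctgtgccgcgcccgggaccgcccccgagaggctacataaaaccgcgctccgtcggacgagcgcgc
Atf3, chr1:191183334-191183583, minus strand: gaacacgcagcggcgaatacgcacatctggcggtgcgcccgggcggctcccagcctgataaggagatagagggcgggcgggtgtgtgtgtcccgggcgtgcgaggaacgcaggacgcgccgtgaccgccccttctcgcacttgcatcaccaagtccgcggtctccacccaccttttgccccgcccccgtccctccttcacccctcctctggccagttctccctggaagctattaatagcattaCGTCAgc
The core began 129 and 66 bases upstream of the start in Fos and 7 bases upstream in Atf3, and formed the full palindrome TGACGTCA in Btg2 (166 bases upstream) and Dusp1 (143 bases upstream). Dusp1 held 1 more core, 191 bases upstream. Entries of 300 bases (250 before and 50 after the start) were found for 29 of the 36 members. On both strands the core occurred in 18 of 29 members (62.1%) against 23% of 27025 genes, the full CRE, which contains it, in 3 (10.3% against 2.03%), an Egr site (GCGGGGGCG or GCGTGGGCG) in 8 (27.6% against 3.93%), a CArG box in 2 (6.9% against 1.81%) and an AP-1 site (TGACTCA or TGAGTCA) in 1 (3.45% against 5.95%). These are matches of letters and not measured binding sites, and no set of promoters matched in base composition was compared. Sequence further upstream was not searched, so that a member without a match here may hold one outside the window.

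Together the 36 genes accounted for 1.36% and 1.18% of all UMIs in lens cells of replicates 1 and 2, 1.501% and 1.56% in endothelial, 1.62% and 1.73% in mural and 2.05% and 2.04% in macrophage cells. Cells were also thinned to 1500 UMIs, here and for the shares of cells below. Cells too shallow for this were left out: 17 and 13 lens, 47 and 11 endothelial, 6 and 7 mural and 2 and 3 macrophage cells. The median thinned cell held 20 and 15 member UMIs in the lens gate, 18 and 18 in the endothelial, 20 and 20 in the mural and 30 and 32 in the macrophage gate. Cells with none made up 0.888% and 1.21% of the lens gate and were 1 of 284 and 0 of 198 in the endothelial gate. There were 0 of 158 and 205 in the mural and 0 of 21 and 23 in the macrophage gate. Nearly every thinned cell of all 4 gates thus carried some of these RNAs, and the smaller gates hold too few cells to rank these shares. Of the 36 genes, 20 were present in all 4 gates and both replicates, with presence taken as at least 20 CPM after the estimated free lens RNA had been subtracted. Only 4 of these 20 (Jun, Egr1, Ier2 and Jund) differed by less than 2-fold between the gates with the highest and lowest mean CPM, 6 differed by 2- to 4-fold, and 10 by more than 4-fold. The shares of all genes that met these limits of presence and fold were not counted, so that the members' counts cannot be set against them. Counted as UMIs per cell without scaling, at the higher depth of lens cells, Jun, Egr1, Ier2 and Jund were less even. Jun was at 11.9 and 14.4 in lens and 4.88 and 4.88 in mural cells. Egr1 was at 9.38 and 10.01 in lens and 3.65 and 3.77 in macrophage cells. Jund was at 5.8 and 6.36 in lens and 2.26 and 2.31 in mural cells, and Ier2 at 5.8 and 5.89 in endothelial and 3.13 and 2.46 in macrophage cells.

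**Figure D1:**
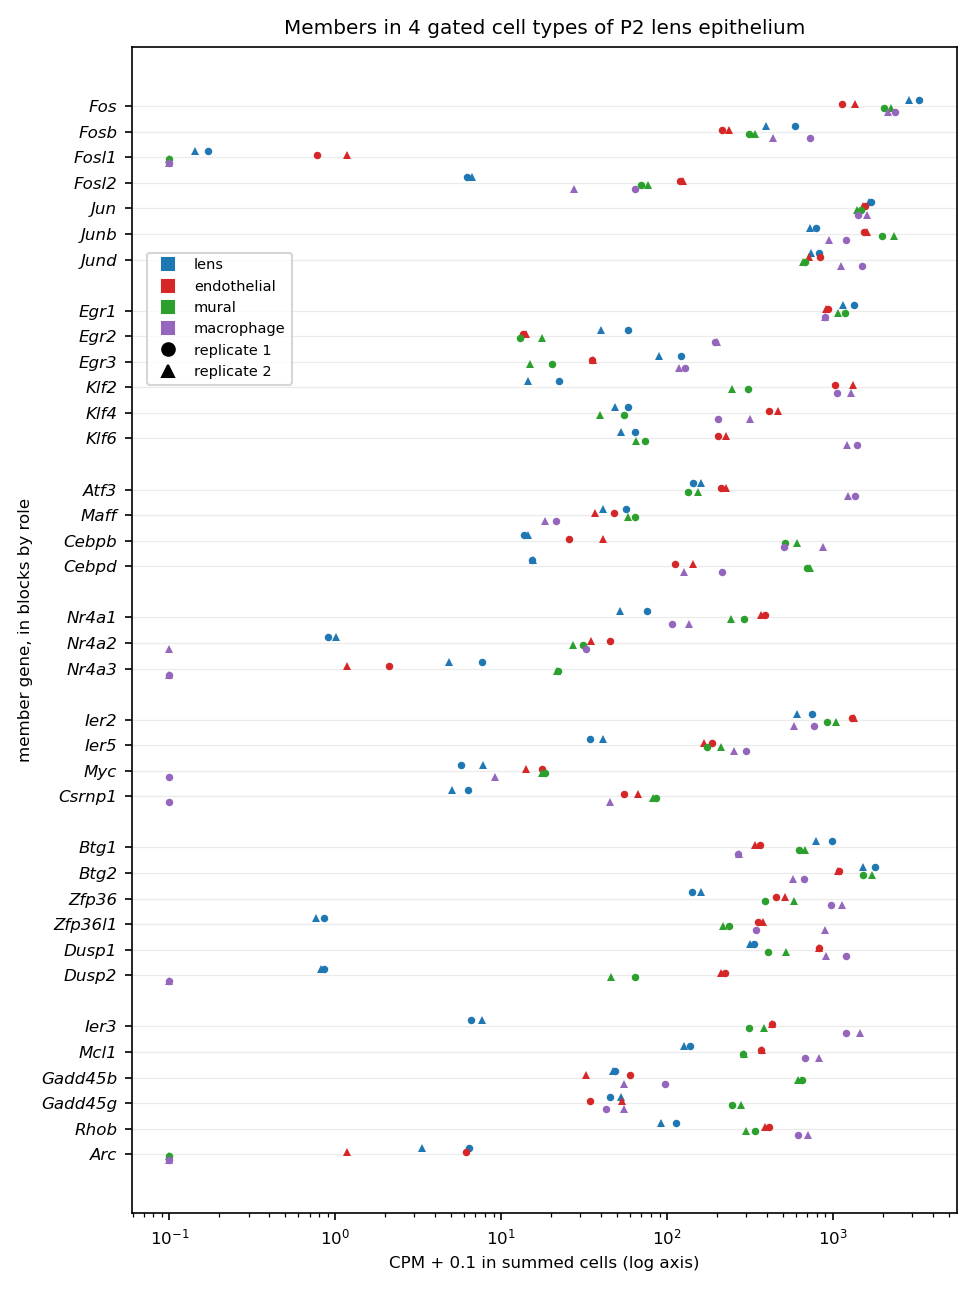
Level of each of the 36 members in summed lens, endothelial, mural and macrophage cells, as CPM plus 0.1 on a log axis, with 1 symbol per replicate and members in blocks by role. Jun and Egr1 lie close together in all 4 gates, while Klf2, Ier3, Zfp36l1 and Cebpb are spread over more than 10-fold with the lens gate lowest; members counted 0 times sit at 0.1.

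Levels were compared between gates with edgeR's quasi-likelihood test, which passed 34 of the 36 members (not Fosl1 or Arc) through its filter on low counts; fold changes are on the log2 scale with their SE after TMM composition factors, and calls were made at a Benjamini-Hochberg adjusted p under 0.05 over all genes tested. Endothelial cells had 20 members higher and 12 lower than lens cells, where 28.5% and 33.1% of all 9810 genes tested were called higher and lower. Mural cells had 21 higher and 9 lower than lens cells (26.6% and 27.3% of all genes), and macrophages 17 higher and 6 lower (16% and 20.6%). The median log2 difference of the members from lens was 0.94 in endothelial, 1.24 in mural and 1.07 in macrophage cells, and that of all genes was -0.11, -0.06 and -0.47. Without composition factors the median of all genes moved to 0.21, 0.16 and -0.21, and the differences from lens given below are to be read against that shift. Between the other gates, 11 members were higher and 12 lower in endothelial than mural cells (16% and 19.4% of all genes). Macrophages had 15 higher and 7 lower than endothelial cells (11.2% and 12.8%). Against mural cells, macrophages had 14 higher and 13 lower (12% and 15.4%), and 14 and 8 with DESeq2 (12.1% and 11.5% of all genes). Tested against each of the other 3 gates in turn, with the same direction in both replicates, 11 members were lower in lens cells (6.24% of all genes). By the same rule 5 were higher in lens cells (11.6%), of which Fos and Btg1 remained without composition factors. Per cell without scaling, Dusp1 and Mcl1, called lower in lens cells, were not lowest there. Dusp1 was at 2.34 and 2.73 UMIs in lens and 1.35 and 1.82 in mural cells. Mcl1 was at 0.966 and 1.098 UMIs in lens and 0.957 and 1.014 in mural cells. The counts of members higher than in all other gates were 5 in endothelial (5.11%), 5 in mural (7.16%) and 9 in macrophage cells (7.47%). Fewer were lower than in all other gates: 2 in endothelial (1.63%), 1 in mural (1.4%) and 1 in macrophage cells (3.73%). DESeq2 did not make the call against all 3 gates for Btg2 (lens), Ier2, Klf4, Nr4a1 and Fosb (endothelial) or Nr4a3 and Egr3 (mural). Nor did it for Dusp1, either as higher in macrophages or as lower in lens cells.

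Among the AP-1 subunits, Fos, the inducible partner of Jun, was at 3320.0 and 2869.5 CPM in lens, 1132 and 1361 CPM in endothelial, 2038 and 2246 CPM in mural and 2359 and 2153 CPM in macrophage cells for replicates 1 and 2. Both lens values lay above all others, and both endothelial values below. Fos was lower in endothelial than in lens cells (-1.64 ± 0.10, adjusted p = 3.2e-13), and also lower in mural (-0.76) and macrophage cells (-0.72). Its relative Fosb was at 592 and 395 CPM in lens, 216 and 236 CPM in endothelial, 313 and 341 CPM in mural and 729 and 436 CPM in macrophage cells, and was lowest in the endothelial gate, with the lens and macrophage ranges overlapping. Jun itself was at 1698 and 1657 CPM in lens, 1552 and 1516 CPM in endothelial, 1468 and 1398 CPM in mural and 1415 and 1599 CPM in macrophage cells. These values spanned 1398 to 1698 CPM, and the 1.17-fold ratio of highest to lowest gate mean was the smallest of the 20 members present in all 4 gates. The edgeR fit called Jun higher in lens than in each other gate (endothelial minus lens -0.45 ± 0.08, adjusted p = 4.1e-05), but without composition factors the call against endothelial and macrophage cells was lost. Junb, a Jun relative that can oppose it, was at 785 and 727 CPM in lens, 1533 and 1595 CPM in endothelial, 1972 and 2325 CPM in mural and 1190.1 and 945 CPM in macrophage cells, with the mural values highest (mural minus lens 1.28 ± 0.09, adjusted p = 2.4e-11). Jund, the subunit found in unstimulated cells, was at 825 and 732 CPM in lens, 839 and 716 CPM in endothelial, 678 and 661 CPM in mural and 1501 and 1117 CPM in macrophage cells, and macrophages were higher than lens cells (0.48 ± 0.11, adjusted p = 0.0019). Per cell, Jund was at 5.8 and 6.36 UMIs in lens and 6.09 and 4.73 in macrophage cells, ranges that overlapped. Fosl2 was at 6.12 and 6.54 CPM in lens, 119.9 and 124 CPM in endothelial, 69.6 and 77.1 CPM in mural and 64.3 and 27.3 CPM in macrophage cells and was lowest in lens cells. Fosl1 was nearly absent, with no value above 1.08 CPM, and in the mural and macrophage gates, where no UMI was counted, a level of up to 2.33 and 14.8 CPM is allowed by a count of 0 (3 counts over both replicates, counting error only).

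The Egr genes followed different patterns across the gates. Egr1 was at 1335 and 1152 CPM in lens, 938 and 909 CPM in endothelial, 1173 and 1069 CPM in mural and 901 and 890.3 CPM in macrophage cells, a narrow range in which lens cells were above endothelial cells (-0.75 ± 0.09, adjusted p = 4.6e-08). Egr2, which acts in myelinating and immune cells, was at 58.1 and 39.6 CPM in lens, 13.5 and 14.1 CPM in endothelial, 12.8 and 17.6 CPM in mural and 193 and 199.9 CPM in macrophage cells. Macrophages were highest (macrophage minus lens 1.77 ± 0.30, adjusted p = 4.9e-05), and lens cells were above endothelial and mural cells without overlap. Egr3 was at 121 and 89.01 CPM in lens, 35.03 and 35.7 CPM in endothelial, 20.2 and 14.9 CPM in mural and 129 and 118 CPM in macrophage cells, and its lens and macrophage ranges overlapped. The free-RNA estimate reached 26.2% of the Egr3 level and 19.4% of the Egr2 level in a gate outside the lens, against at most 14.9% for the 20 members present in all gates.

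Of the Klf zinc finger genes, Klf2, a shear-induced regulator of endothelial quiescence, was at 22.1 and 14.4 CPM in lens, 1025 and 1319 CPM in endothelial, 308 and 246 CPM in mural and 1051 and 1281 CPM in macrophage cells. Endothelial and macrophage cells were both far above lens cells (endothelial minus lens 5.68 ± 0.17, adjusted p = 4.8e-19; macrophage minus lens 5.75 ± 0.24, adjusted p = 1.0e-15), and mural cells lay between. At 1500 UMIs per cell, 66.5% and 66.2% of endothelial cells held a Klf2 UMI, against 3.31% and 1.93% of lens cells (75.2% and 80.9% against 10.5% and 8.72% with all UMIs). Klf4, known for roles in epithelia and endothelium, was at 57.7 and 48.8 CPM in lens, 412 and 464 CPM in endothelial, 54.97 and 39.2 CPM in mural and 204 and 318 CPM in macrophage cells, and endothelial cells were highest (endothelial minus lens 2.71 ± 0.13, adjusted p = 2.4e-15; macrophage minus endothelial -0.65 ± 0.24, adjusted p = 0.047). Klf6, an injury-responsive factor, was at 64.3 and 52.5 CPM in lens, 203 and 225 CPM in endothelial, 73.3 and 64.9 CPM in mural and 1394 and 1217 CPM in macrophage cells. The macrophage values lay far above those of any other gate (macrophage minus lens 4.22 ± 0.15, adjusted p = 7.2e-17), and the lens and mural values were lowest.

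Of the other leucine zipper factors, Atf3, a stress-induced repressor, was at 144 and 159 CPM in lens, 210.2 and 226 CPM in endothelial, 134 and 154 CPM in mural and 1362 and 1226 CPM in macrophage cells. Macrophages stood apart from the other 3 gates (macrophage minus lens 2.83 ± 0.13, adjusted p = 8.7e-15), which lay within 134 to 226 CPM. Cebpb and Cebpd, factors of inflammatory and adipocyte gene control, were low in the lens gate and differed from each other outside it. Cebpb was at 13.6 and 14.4 CPM in lens, 25.6 and 41.1 CPM in endothelial, 511 and 607 CPM in mural and 504 and 872 CPM in macrophage cells (mural minus lens 5.08 ± 0.14, adjusted p = 1.7e-19). Cebpd was at 15.3 and 15.4 CPM in lens, 112 and 144 CPM in endothelial, 700.0 and 723 CPM in mural and 214 and 127 CPM in macrophage cells (mural minus lens 5.30 ± 0.13, adjusted p = 9.4e-21). Cebpb was thus high in mural and macrophage cells, whose ranges overlapped, and Cebpd was higher in mural cells than in each other gate. Maff, a small Maf protein, was low throughout, at 56.2 and 41.1 CPM in lens, 47.8 and 36.8 CPM in endothelial, 64.1 and 58.1 CPM in mural and 21.4 and 18.2 CPM in macrophage cells.

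The orphan nuclear receptor Nr4a1 was at 75.3 and 51.8 CPM in lens, 389 and 370.1 CPM in endothelial, 291 and 243 CPM in mural and 107 and 136 CPM in macrophage cells, highest in endothelial cells (endothelial minus lens 2.26 ± 0.12, adjusted p = 3.8e-14; endothelial minus mural 0.41 ± 0.14, adjusted p = 0.026). Nr4a2 was at 0.806 and 0.916 CPM in lens, 45.1 and 34.6 CPM in endothelial, 31.1 and 27.04 CPM in mural and 32.2 and 0 CPM in macrophage cells, so that its macrophage level rested on 1 replicate. Nr4a3 was at 7.55 and 4.75 CPM in lens, 2.02 and 1.08 CPM in endothelial, 21.99 and 21.6 CPM in mural and 0 and 0 CPM in macrophage cells, with the 2 mural values above all others. Among other nuclear regulators, Ier2 was at 749 and 604 CPM in lens, 1293 and 1332 CPM in endothelial, 916 and 1046 CPM in mural and 772 and 581 CPM in macrophage cells and was higher in endothelial cells than in each other gate. Ier5 was at 34.4 and 41.1 CPM in lens, 186 and 168 CPM in endothelial, 174 and 212 CPM in mural and 300.2 and 254 CPM in macrophage cells, lowest in lens cells (macrophage minus lens 2.61 ± 0.27, adjusted p = 2.4e-08). Csrnp1 was at 6.24 and 4.96 CPM in lens, 54.6 and 67.1 CPM in endothelial, 86.1 and 82.5 CPM in mural and 0 and 45.4 CPM in macrophage cells and Myc at 5.63 and 7.62 CPM in lens, 17.5 and 14.1 CPM in endothelial, 18.3 and 17.6 CPM in mural and 0 and 9.08 CPM in macrophage cells. Csrnp1 was higher in endothelial and mural than in lens cells (mural minus lens 3.67 ± 0.27, adjusted p = 3.6e-11), and in macrophages a single replicate held any UMI of either gene.

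The RNA-decay and phosphatase genes fell into opposite patterns. The antiproliferative genes Btg1 and Btg2, which recruit mRNA deadenylases, were highest in lens cells. Btg1 was at 988 and 791 CPM in lens, 362 and 337 CPM in endothelial, 621 and 676 CPM in mural and 268 and 273 CPM in macrophage cells (endothelial minus lens -1.67 ± 0.11, adjusted p = 1.0e-12). Btg2 was at 1783 and 1519 CPM in lens, 1089 and 1074 CPM in endothelial, 1506 and 1706 CPM in mural and 665 and 572 CPM in macrophage cells. Its lens and mural ranges overlapped, and the call between them (mural minus lens -0.27 ± 0.09, adjusted p = 0.019) was lost with RLE factors (another composition correction), without factors and with DESeq2. Zfp36 and Zfp36l1, which bind AU-rich elements and promote RNA decay, were lowest in lens cells. Zfp36 was at 141 and 159 CPM in lens, 451 and 511 CPM in endothelial, 387 and 584 CPM in mural and 976 and 1126 CPM in macrophage cells (macrophage minus lens 2.54 ± 0.15, adjusted p = 7.3e-13). Zfp36l1 was at 0.754 and 0.66 CPM in lens, 355 and 379.9 CPM in endothelial, 235 and 216 CPM in mural and 343 and 890.3 CPM in macrophage cells, the widest contrast between lens and the other gates of any member (endothelial minus lens 8.67 ± 0.22, adjusted p = 1.3e-20). A Zfp36l1 UMI was found in 0.111% and 0.111% of lens cells (95% exact binomial intervals 0.0508% to 0.211% and 0.0409% to 0.242%) against 35.9% and 39.4% of endothelial cells at 1500 UMIs per cell (0.492% and 0.5% against 62.2% and 65.6% with all UMIs). Dusp1 was at 332 and 314 CPM in lens, 821 and 824 CPM in endothelial, 407 and 522 CPM in mural and 1190.1 and 908 CPM in macrophage cells and was highest in macrophages (macrophage minus lens 1.43 ± 0.15, adjusted p = 2.4e-08). Dusp2, another MAP kinase phosphatase, was at 0.754 and 0.724 CPM in lens, 222 and 209.9 CPM in endothelial, 64.1 and 45.96 CPM in mural and 0 and 0 CPM in macrophage cells; no UMI was counted in macrophages, so that the endothelial level was at least 14.8-fold higher (against 3 counts over both replicates).

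Among survival, stress and cytoplasmic products, Ier3, an apoptosis regulator, was at 6.45 and 7.58 CPM in lens, 426 and 431 CPM in endothelial, 313 and 383 CPM in mural and 1201 and 1444 CPM in macrophage cells (macrophage minus lens 7.30 ± 0.16, adjusted p = 3.6e-21). Lens cells were lowest by a wide margin. Mcl1, an anti-apoptotic Bcl2 relative, was at 137 and 126 CPM in lens, 369 and 371 CPM in endothelial, 288 and 291 CPM in mural and 675 and 827 CPM in macrophage cells, and Rhob, an endosomal GTPase, at 113 and 92.3 CPM in lens, 409.6 and 391 CPM in endothelial, 339 and 297 CPM in mural and 611 and 709 CPM in macrophage cells, and for both the order from macrophage to lens was the same in the 2 replicates. Gadd45b and Gadd45g, DNA-damage and stress-kinase adaptors, were higher in mural cells than in each other gate. Gadd45b was at 48.2 and 47.05 CPM in lens, 59.96 and 32.5 CPM in endothelial, 647 and 612 CPM in mural and 96.5 and 54.5 CPM in macrophage cells (endothelial minus mural -3.80 ± 0.16, adjusted p = 4.1e-15). Gadd45g was at 45.04 and 52.7 CPM in lens, 34.4 and 53.03 CPM in endothelial, 246 and 278 CPM in mural and 42.9 and 54.5 CPM in macrophage cells (mural minus lens 2.19 ± 0.15, adjusted p = 1.1e-11), and the other 3 gates overlapped. Arc, a synaptic immediate early gene, did not exceed 6.29 CPM.

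Lists of related genes were set beside the members. Of 26 other rapid response genes, 17 were higher and 4 lower in endothelial than lens cells, 15 and 5 in mural cells, and 13 and 5 in macrophages. The largest changes in endothelial cells were those of the stress-induced kinase genes Sgk1 (endothelial minus lens 6.72 ± 0.22, adjusted p = 1.8e-18), Plk2 (5.82 ± 0.14, adjusted p = 8.3e-21) and Plk3 (4.00 ± 0.30, adjusted p = 3.1e-11). Of 18 tested genes of the upstream machinery (serum response, CREB and MAP kinase pathway), 11 were higher and 1 lower in endothelial, 8 and 1 in mural, and 4 and 1 in macrophage cells, with Elk3, a cofactor of serum response factor, the largest change in endothelial cells (4.53 ± 0.17, adjusted p = 2.9e-17). Of 10 tested MAP kinase feedback genes, 7, 7 and 4 were higher and 0, 1 and 0 lower in endothelial, mural and macrophage than in lens cells. Of 12 heat shock genes, 5, 5 and 1 were higher and 3, 3 and 4 lower, and their sum made up 0.349% and 0.339% of UMIs in lens, 0.349% and 0.303% in endothelial, 0.374% and 0.338% in mural and 0.3% and 0.205% in macrophage cells.

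Lens cells were then divided by shares of marker genes into resting (4447 and 2958 cells), dividing (1482 and 986), early differentiating (1206 and 802) and late differentiating cells (987 and 657). These are ranges of a score rather than types, and 358 and 170 cells lay within 5% of the limit of the differentiating range. Most members were lower in differentiating than in resting lens cells, and Atf3 was higher. Together the members made up 1.79% and 1.51% of UMIs in resting, 1.61% and 1.401% in dividing, 1.06% and 0.846% in early and 0.445% and 0.497% in late differentiating cells. Early differentiating cells had 1 member higher (Atf3) and 25 lower than resting cells, where 19.1% of all 12775 genes were called in each direction. Late differentiating cells had 2 members higher (Atf3, and Gadd45b by 0.26, with replicates that differed in sign) and 25 lower than resting cells (31.8% and 32.1% of all genes), and 6 higher and 19 lower than early differentiating cells (22.1% and 19.7%). Without composition factors, the last split was 2 higher and 25 lower, where 733 and 7778 of all 12775 genes were called higher and lower. The median change of all genes from early to late moved from -0.02 to -0.51.

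**Figure D2:**
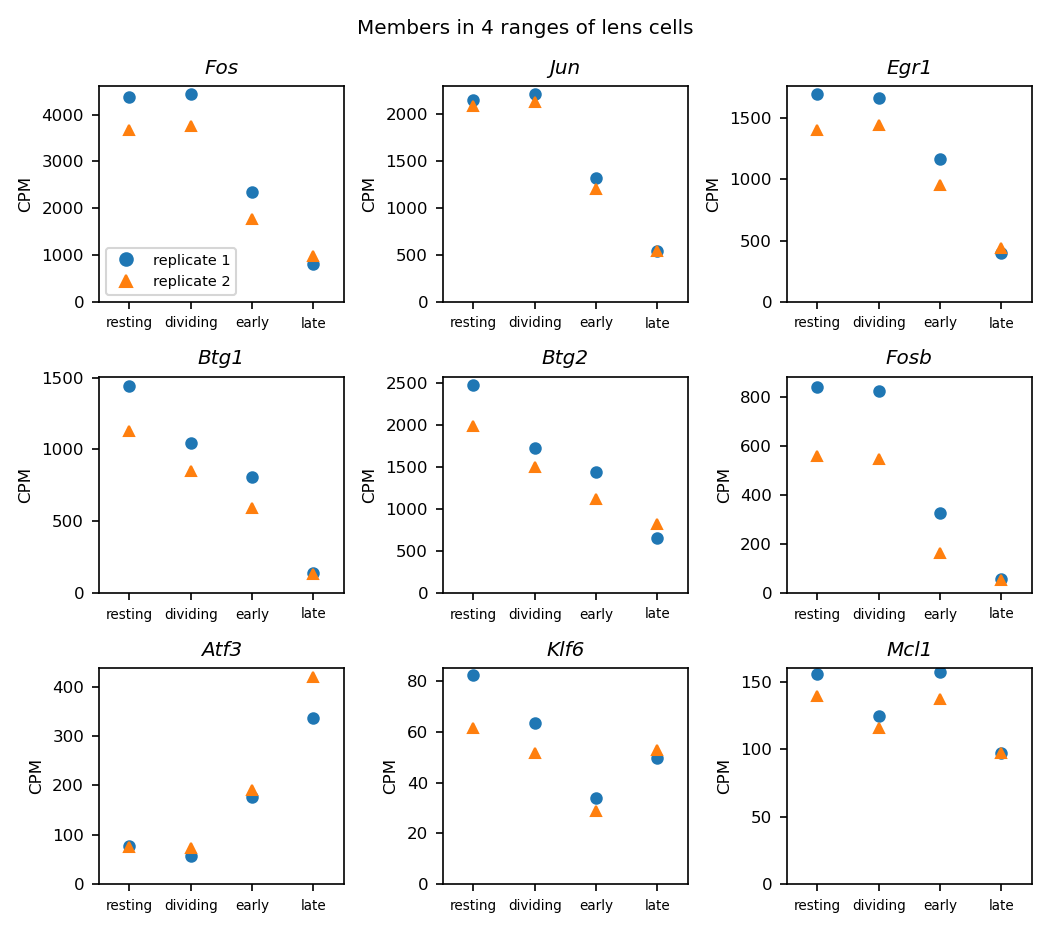
Level in CPM (axes from 0) of 9 members in summed resting, dividing, early and late differentiating lens cells, 1 symbol per replicate. Fos, Jun, Egr1, Btg1, Btg2 and Fosb step down from resting to late cells in both replicates, Atf3 steps up, Klf6 is lowest in early cells, and Mcl1 is lowest in late cells on this scale.

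All 6 tested AP-1 subunits were lower in early than in resting cells, and all 6 again in late than in resting cells. Fos was at 4375 and 3675 CPM in resting, 4431 and 3765 CPM in dividing, 2348 and 1779 CPM in early differentiating and 809 and 980.3 CPM in late differentiating cells for replicates 1 and 2. It fell in early (-0.84 ± 0.09, adjusted p = 1.3e-05) and further in late cells (late minus early -0.71 ± 0.10, adjusted p = 5.8e-05), and did not differ detectably between dividing and resting cells (0.04 ± 0.09, adjusted p = 0.77). Fosb was at 841 and 559 CPM in resting, 824 and 546 CPM in dividing, 327 and 163 CPM in early differentiating and 55.5 and 51.5 CPM in late differentiating cells, the steepest fall of the subunits (late minus resting -3.09 ± 0.12, adjusted p = 1.7e-10). Jun was at 2152 and 2087 CPM in resting, 2218 and 2131 CPM in dividing, 1319.8 and 1207 CPM in early differentiating and 546 and 541 CPM in late differentiating cells (late minus resting -1.36 ± 0.04, adjusted p = 8.3e-12), and Jund fell least (-0.66 ± 0.05, adjusted p = 7.2e-08). Late cells held more UMIs, with median UMIs of 12268 and 14003 against 5426 and 6869 in resting cells. Counted per cell without scaling, Fos was still lower, at 9.91 and 13.5 UMIs in late against 24.3 and 25.5 in resting cells, as were Jun (6.68 and 7.43 against 11.96 and 14.5) and Fosb (0.68 and 0.708 against 4.67 and 3.88). Per cell, 24 of the 36 members were lower in late than resting cells in both replicates and 7 were higher (Atf3, Klf6, Mcl1, Rhob, Gadd45b, Gadd45g and the rarely counted Dusp2), among them Mcl1 at 1.197 and 1.33 against 0.866 and 0.971 and Rhob at 1.15 and 1.099 against 0.738 and 0.769 UMIs. The shares of all genes lower and higher per cell were not counted, so that neither count can be set against them.

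Egr1 was at 1696 and 1400.1 CPM in resting, 1664 and 1447 CPM in dividing, 1168 and 949.9 CPM in early differentiating and 402 and 436 CPM in late differentiating cells (late minus resting -1.27 ± 0.07, adjusted p = 2.4e-09), and Egr2, Egr3 and Klf4 fell as well. The decay-linked gene Btg1 was at 1439 and 1127 CPM in resting, 1043 and 849 CPM in dividing, 807 and 593 CPM in early differentiating and 142 and 129.8 CPM in late differentiating cells, and most of its fall came between early and late cells (-1.87 ± 0.06, adjusted p = 6.3e-11). Btg2 was at 2482 and 1988 CPM in resting, 1729.8 and 1498 CPM in dividing, 1440.0 and 1116 CPM in early differentiating and 652 and 817 CPM in late differentiating cells (late minus resting -0.99 ± 0.10, adjusted p = 2.4e-06). Per cell, Btg2 went from 13.8 and 13.8 UMIs in resting to 7.98 and 11.2 in late cells, a smaller step than in CPM. Nr4a1 was at 111 and 73.5 CPM in resting, 96.98 and 72.8 CPM in dividing, 34.05 and 16.9 CPM in early differentiating and 11.4 and 8.98 CPM in late differentiating cells and Ier2 at 1005 and 799 CPM in resting, 974 and 825 CPM in dividing, 523 and 302 CPM in early differentiating and 177 and 172 CPM in late differentiating cells, and both fell in both steps. Myc, the growth regulator, was at 8.86 and 12.8 CPM in resting, 6.69 and 8.64 CPM in dividing, 2.86 and 1.19 CPM in early differentiating and 0 and 0.111 CPM in late differentiating cells, with almost no UMIs left in late cells.

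Atf3 took the opposite course. It was at 77.95 and 73.98 CPM in resting, 57.3 and 73.3 CPM in dividing, 177 and 191 CPM in early differentiating and 336 and 420.4 CPM in late differentiating cells for replicates 1 and 2, and was higher in early than resting (1.40 ± 0.08, adjusted p = 3.2e-08) and in late than early cells (1.51 ± 0.08, adjusted p = 9.2e-09). The late values lay above all others in both replicates. Per cell, Atf3 rose from 0.433 and 0.513 UMIs in resting to 1.29 and 1.803 in early and 4.12 and 5.77 in late cells. With both differentiating ranges narrowed to the highest-scoring cells, the rise from resting to early cells was larger (2.46) and the step from early to late was not called (-0.06, adjusted p = 0.81), and with a lens gate that ignored Egfl7 and Notch3 the 2 steps were 0.77 and 2.12. Klf6 fell in early cells and was higher in late than in early ones (82.6 and 61.6 CPM in resting, 63.4 and 51.5 CPM in dividing, 33.9 and 28.9 CPM in early differentiating and 49.9 and 52.8 CPM in late differentiating cells; late minus early 1.19 ± 0.10, adjusted p = 1.4e-06). Rhob (0.55), Gadd45b (0.51), Gadd45g (0.58) and Maff (0.55) were also called higher in late than early cells. Of these 5 calls only that of Klf6 remained without composition factors, and with the narrowed ranges none of the 5 was called, Klf6 being at 0.10 in early minus resting and -0.09 in late minus early cells. Mcl1 was not called in any step of differentiation and did not differ detectably between late and resting cells (0.00 ± 0.05, adjusted p = 0.96).

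In dividing cells, 2 members were higher and 15 lower than in resting cells (22.5% and 22.7% of all genes), with a median log2 difference of -0.26 against -0.65 for early and -1.23 for late cells. The fit without the pool as a block called 0 higher and 10 lower (16.3% and 12.8% of all genes). Narrower ranges of cells gave 4 and 10 of 32, where 2729 and 2460 of all 11972 genes were called. Ier5 was higher (0.50 ± 0.09, adjusted p = 5.6e-04), as was the low-count Nr4a3 (0.51 ± 0.13, adjusted p = 0.0058). Cebpd (-1.18 ± 0.13, adjusted p = 6.6e-06) and Zfp36 (-0.79 ± 0.09, adjusted p = 1.9e-05) fell most in CPM, and Btg1 (-0.42) and Btg2 (-0.45) fell less. Dividing cells held more UMIs than resting ones (medians of 7932 and 10189), and per cell 24 of the 36 members were higher and 5 (Zfp36, Zfp36l1, Maff, Cebpb and Cebpd) lower in both replicates. The share of all genes higher per cell was not counted, so that the members' count cannot be set against it at this greater depth. Btg1 was at 8.104 and 8.47 UMIs in dividing against 7.996 and 7.81 in resting cells, Btg2 at 13.4 and 14.9 against 13.8 and 13.8, Fos at 34.4 and 37.6 against 24.3 and 25.5 and Zfp36 at 0.844 and 1.09 against 1.03 and 1.35. Jun was at 0.05 ± 0.04, adjusted p = 0.32 and Egr1 at 0.02 ± 0.06, adjusted p = 0.82 in log2 difference from resting cells.

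Related genes were counted in the same comparisons. Of 26 other rapid response genes, 4 were higher and 15 lower in early than resting cells and 5 and 16 in late cells, and Ccn1 (-2.41 ± 0.25, adjusted p = 5.9e-06) and Ccn2 (-2.26 ± 0.25, adjusted p = 1.4e-05), targets of serum response and YAP signaling, fell most in early cells. Of 11 MAP kinase feedback genes, 6 were higher and 1 lower in early, and 7 higher and 1 lower in late cells. These included the FGF-induced genes Etv5 (2.67 ± 0.15, adjusted p = 2.6e-08 in early minus resting) and Spry2 (1.92 ± 0.12, adjusted p = 9.3e-08). Of 20 upstream genes, 0 were higher and 2 lower in early cells, with 8 at an unadjusted p under 0.05. Heat shock genes were called in both directions (3 higher and 4 lower in early cells), with the stress-inducible Hspa1a (-0.85 ± 0.23, adjusted p = 0.011) and Hspa1b (-1.50 ± 0.39, adjusted p = 0.0082) among those that fell.

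To set groups within the resting range, cells were thinned to 3000 UMIs, which left 4338 of 4447 and 2910 of 2958 cells. Those with a UMI of the Notch-pathway repressor gene Hes5 were compared with those without. The positive groups held 826 and 866 cells and the negative 3512 and 2044, with nearly equal median depth (5514 and 6955 against 5440 and 6869 UMIs). State markers differed between the groups. The 9 late markers summed to 2108 and 1952 CPM in positive against 2802 and 2976 CPM in negative cells. The 8 early markers summed to 668 and 627 against 574 and 553 CPM, and the 12 division markers overlapped (177 and 421 against 154 and 376 CPM). Igfbp5 was at 299 and 234 against 618 and 429 CPM. The part of these markers in the differences between Hes5 groups was not tested. Hes5-positive cells had 26 of 34 members higher and 0 lower, where 3.6% and 2.53% of all 12274 genes were called. At an unadjusted p under 0.05, 28 members passed. Both replicates were higher for 28 members and lower for 1. The share of all genes is not given for either measure, so that neither count can be set against it. With only 1 residual degree of freedom, edgeR gave every gene the same spread. Its p-values and the SEs printed for this comparison therefore reflect mostly counting error and not the difference between replicates. DESeq2 called 16 members higher and 0 lower (0.521% and 0.13% of all genes). Without the pool as a block, edgeR called 0 in either direction (0.0163% and 0%). Sizes of change and SEs below are those of edgeR, and printed p-values are those of DESeq2. Replicate values are printed for some members only.

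Atf3 was at 142 and 138 CPM in Hes5-positive and 62.7 and 47.1 CPM in Hes5-negative cells for replicates 1 and 2, the largest change of the members (1.38 ± 0.05, DESeq2 adjusted p = 1.2e-22). Jun was at 3196 and 3125 CPM in Hes5-positive and 1906 and 1649 CPM in Hes5-negative cells (0.86 ± 0.02, DESeq2 adjusted p = 5.8e-46). Fos was at 5527 and 5028 CPM in Hes5-positive and 4100.5 and 3107 CPM in Hes5-negative cells (0.59 ± 0.02, DESeq2 adjusted p = 2.6e-04), and Btg2 at 3278 and 2905 CPM in Hes5-positive and 2297 and 1603 CPM in Hes5-negative cells (0.71 ± 0.02, DESeq2 adjusted p = 0.0015). For Atf3, Jun and Btg2 both positive values lay above both negative ones, and so did those of Fos. Gadd45b (0.89 ± 0.07, DESeq2 adjusted p = 1.7e-06), Zfp36 (0.78 ± 0.04, DESeq2 adjusted p = 0.0015), Nr4a1 (0.88 ± 0.05, DESeq2 adjusted p = 1.6e-11) and Dusp1 (0.58 ± 0.03, DESeq2 adjusted p = 7.2e-14) also rose. Fosb was at 815 and 579 CPM in Hes5-positive and 848 and 552 CPM in Hes5-negative cells and was not called (0.03 ± 0.03, DESeq2 adjusted p = 1). Btg1, Klf2 and Rhob were not called either, with log2 differences of 0.06, -0.20 and 0.14. Of 26 other rapid response genes, edgeR called 15 higher and 1 lower, with Hes1, itself a Notch target, at 1.16, and Stat3 was the 1 of 20 upstream genes called (0.67). Of 12 heat shock genes 3 were called higher, the largest change being that of Dnajb1 (0.71).

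**Figure D3:**
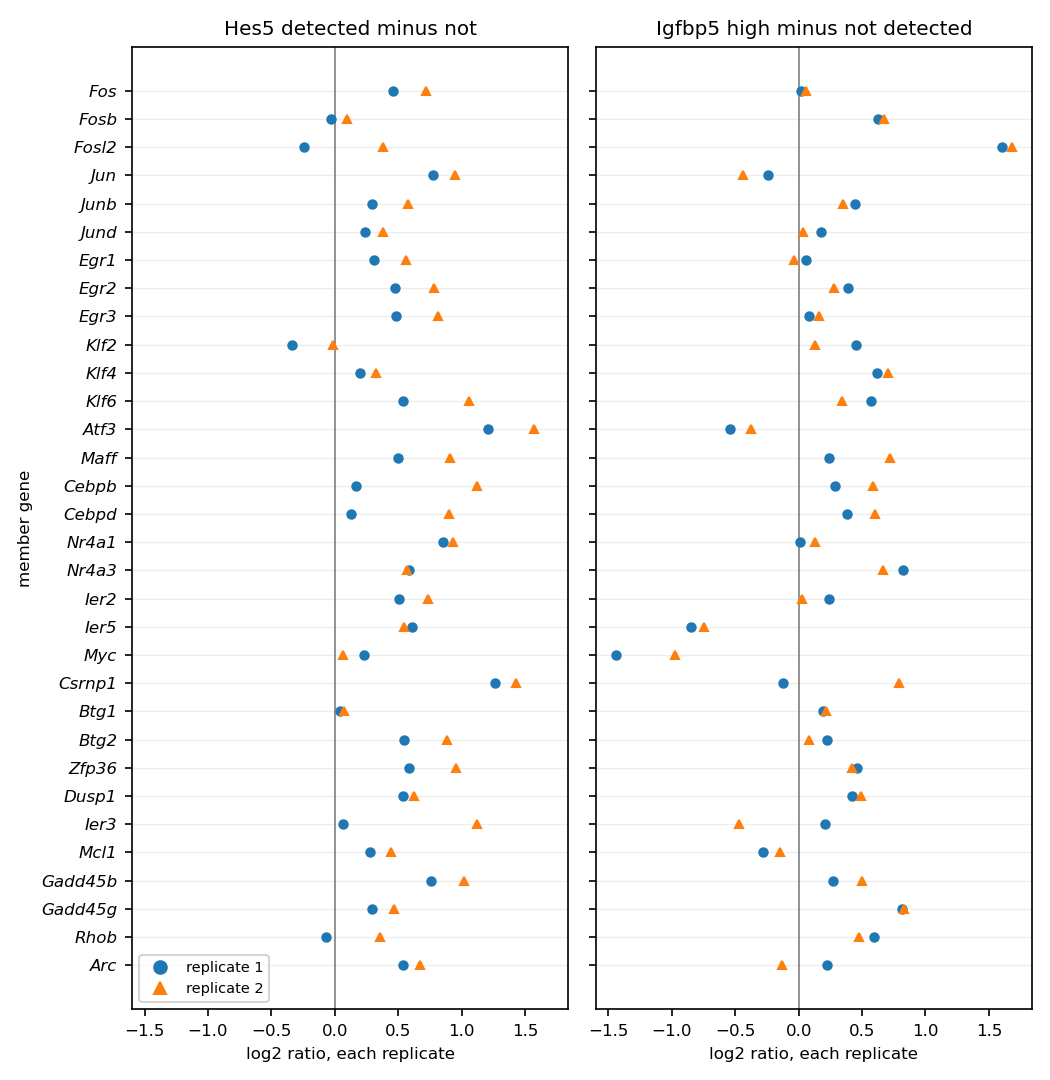
Log2 ratio in each replicate of the 32 members tested in both comparisons of resting lens cells, Hes5-positive over Hes5-negative on the left and Igfbp5-high over Igfbp5-negative on the right. On the left most symbols lie right of 0, with Fosb and Btg1 close to 0 and Klf2 left of it; on the right Fosl2 and Fosb lie above 0 and Jun, Atf3, Ier5 and Myc below 0.

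Resting cells with at least 3 UMIs of Igfbp5, which encodes a secreted IGF-binding protein, were compared with those without any, again at 3000 UMIs per cell. The groups held 999 and 452 high and 2043 and 1584 negative cells, drawn from the same resting cells as the Hes5 groups. The splits were not independent: Hes5 was at 82.9 and 165 CPM in Igfbp5-high against 293 and 495 CPM in Igfbp5-negative cells. The groups also differed in state markers. The 8 early differentiation markers summed to 352 and 333 CPM in Igfbp5-high against 821 and 734 CPM in Igfbp5-negative cells. The 12 division markers summed to 103 and 220 against 191 and 458 CPM, and the 9 late markers overlapped (2952 and 2663 against 2504 and 2780 CPM). The part of Hes5 and of these markers in the differences here was not tested. Of 32 members tested, 20 were higher and 5 lower in Igfbp5-high cells, against 13.6% and 15.7% of all 12011 genes. DESeq2 called 10 higher and 3 lower (3.03% and 3.65% of all genes), and edgeR without the block 7 and 3 (2.93% and 2.1%). The edgeR p-values and SEs carry the same limit as for Hes5.

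The AP-1 subunits split in this comparison. Fosb was at 1069.5 and 767 CPM in Igfbp5-high and 681 and 472 CPM in Igfbp5-negative cells (0.65 ± 0.03, DESeq2 adjusted p = 1.1e-18), with both high values above both negative ones. Fosl2, at 17.2 and 22.3 CPM in Igfbp5-high and 5.55 and 6.82 CPM in Igfbp5-negative cells, changed most of all members (1.64 ± 0.18, DESeq2 adjusted p = 1.1e-04). Junb rose (0.40 ± 0.03, DESeq2 adjusted p = 1.6e-07), Jun was at 1934 and 1693 CPM in Igfbp5-high and 2244 and 2252 CPM in Igfbp5-negative cells and fell (-0.33 ± 0.03, DESeq2 adjusted p = 6.9e-06), and Fos was at 4374 and 3830.5 CPM in Igfbp5-high and 4248 and 3614 CPM in Igfbp5-negative cells without a call (0.04 ± 0.03, DESeq2 adjusted p = 0.99). Atf3 was at 59.6 and 64 CPM in Igfbp5-high and 85.4 and 81.4 CPM in Igfbp5-negative cells and fell (-0.47 ± 0.08, DESeq2 adjusted p = 0.04), as did Ier5 (-0.80 ± 0.10, DESeq2 adjusted p = 0.0024). Gadd45g (0.82 ± 0.08, DESeq2 adjusted p = 4.7e-05), Klf4 (0.65 ± 0.07, DESeq2 adjusted p = 3.1e-04), Rhob (0.55 ± 0.06, DESeq2 adjusted p = 3.4e-04), Dusp1 (0.45 ± 0.04, DESeq2 adjusted p = 6.4e-07) and Zfp36 (0.44 ± 0.05, DESeq2 adjusted p = 5.5e-04) rose. Myc was lower with edgeR and not called by DESeq2 (-1.23 ± 0.23, DESeq2 adjusted p = 0.081). Of the MAP kinase feedback genes 2 were higher and 4 lower, with Dusp6 at -2.32 and Dusp5 at 1.57 in log2 difference. Of 26 other rapid response genes 8 were higher and 8 lower, Bhlhe40 changing most (1.42); 1 of 20 upstream genes was called, Stat3 (0.31), and of 12 heat shock genes 1 was higher and 5 lower.

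Among resting cells of 1 replicate, the members' counts also varied together from cell to cell. In all, 14 members were detected in at least 20% of cells thinned to 3000 UMIs (4338 and 2910 cells), which gives 91 pairs. Pearson's r of log counts was highest for Fos with Btg2 (0.54 and 0.68 in replicates 1 and 2), Fos with Jun (0.48 and 0.59) and Fos with Egr1 (0.46 and 0.57). Of the 91 pairs, 39 had r above 0.2 in both replicates, and the median r was 0.17 and 0.25. Pairs of other genes were not correlated, so that these values have no background to be set against. The part of Hes5 and of state markers in them was not tested. With cells thinned to 5000 UMIs (3001 and 2700 cells), 60 of the 91 values moved by no more than the spread between replicates and 31 by more. At that depth r was higher in both replicates for 74 pairs, and the median was 0.21 and 0.29. Btg1 (median r 0.06 and 0.11), Mcl1 (0.02 and 0.07) and Rhob (0.09 and 0.06) stood outside this group. Fosb, in spite of its detection in 79.4% and 63.2% of cells, correlated less with Jun (0.17 and 0.24) than Fos did. These values describe cells that share a library and depth, and r of low-count members is limited by sampling.

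**Figure D4:**
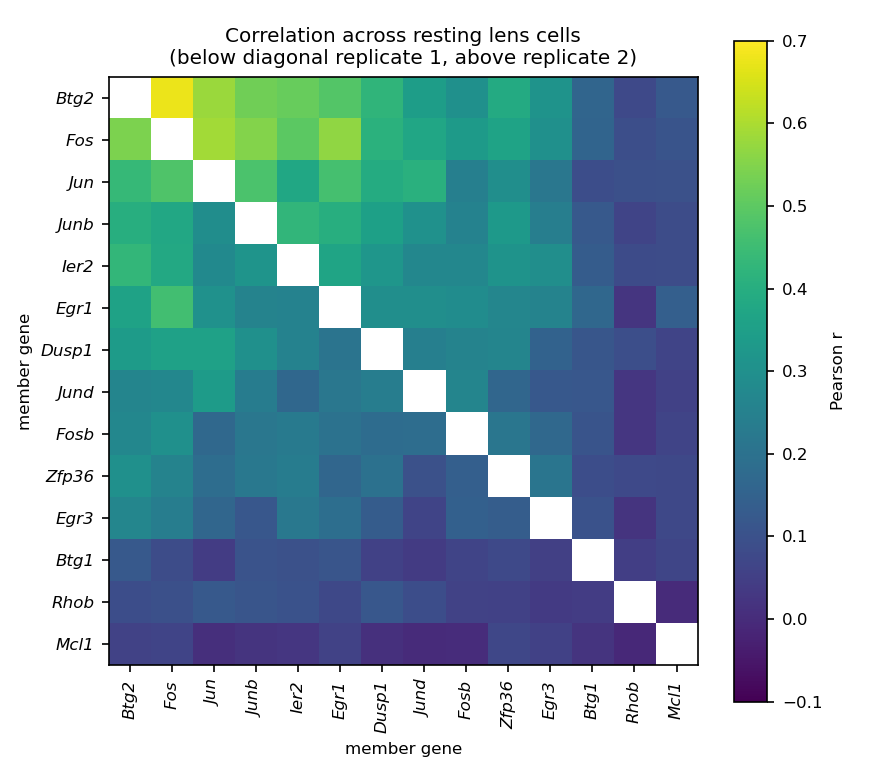
Pearson's r between log counts of 14 members across resting lens cells thinned to 3000 UMIs (4338 cells of replicate 1 below the diagonal, 2910 cells of replicate 2 above), members ordered by median r. Btg2, Fos, Jun, Junb, Ier2 and Egr1 form the bright upper left corner, and Btg1, Rhob and Mcl1 the dark lower and right edges.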

How the data were processed

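Per the labels, the authors made the libraries with 10x 3′ chemistry (v3.1), aligned reads to mm10 with Cell Ranger (6.1.1 in the submitters' notes) and deposited filtered tables of raw UMI counts per gene and barcode. From these counts, barcodes between the 2nd and 97th percentiles of genes and UMIs with 1% to 15% mitochondrial UMIs were kept, and likely doublets, taken as the top 8% by Scrublet score (scanpy 1.11.5), were removed from each pool. Lens cells had a Cryaa plus Cryab share of at least 25% of the pool median and at most 1 UMI of the other types' markers; other gates required at least 4 UMIs from at least 3 markers, 4 times those of each other list, and a crystallin share under 25% of the median. Cells with over 5% hemoglobin UMIs were left out of all gates. This left 3629 cells in no gate. Differentiating cells were the 27% of lens cells with the highest ranks of 2 marker lists, the top 45% of them by late markers being late, and dividing cells the top 25% of the rest.

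UMIs summed per pool and class were tested with edgeR 4.0.16 (TMM factors, default filter, pool as a block, called at 0.05) in R 4.3.3, with DESeq2 1.42.0 as an alternative. The pool was a block because classes of 1 pool come from the same pups; differences between pools correlated across lens states at r = 0.56 to 0.79 and across cell types at 0.06 to 0.32. On simulated counts for endothelial against lens cells (7708 genes), edgeR found 92 of 100 genes changed 2-fold and 100 of 100 changed 4-fold. It made 12 false calls there. For the fits of lens states, Hes5 and Igfbp5 it found 78, 69 and 76 of 100 changed 2-fold. The simulation used real library sizes, but equal means in all classes before the change, a fixed spread for every gene and no pool effect. Only genes above a count limit were changed, so that it does not give the power or false calls in the real data. All 36 members are named, each under its role; of each other list, those named come from the 3 largest called changes per comparison. The members and lists were chosen with earlier results of these data known. Promoters are RefSeq entries on GRCm38.p6. In macrophages 3 counts over both replicates correspond to 14.8 CPM, and intervals cover counting error only.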

Additional observations from a re-analysis of the deposited data

How the results depend on the processing

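Of 276 recounts of called members under another setting, 252 stayed within 1.5 times the count given above and 24 did not. In the fit with no replicate block, dividing minus resting cells had 0 members higher (16.3% of all genes) and late minus resting 1 (26.8%). Hes5-positive cells had 0 higher (0.0163%), and Igfbp5-high cells 7 higher and 3 lower (2.93% and 2.1%). DESeq2 gave 7 higher for endothelial minus mural (13.1% of all genes), 8 lower for macrophage minus mural (11.5%), and 1 higher each for dividing and late minus resting (15% and 25.3%). It gave 16 higher for Hes5 (0.521%), and 10 higher and 3 lower for Igfbp5 (3.03% and 3.65%). Without scaling factors (added after seeing the data), late cells had 2 members higher than early and 1 higher than resting cells (733 and 1325 of 12775 genes). With cells thinned to 1500 UMIs, the higher counts were 1 for dividing, 3 for late minus early and 1 for late minus resting (1573, 1010 and 1924 of 9750 genes). With a lens gate that ignored Egfl7 and Notch3 (also added later), they were 3 for early and 4 for late minus resting (2411 and 4325 of 13213 genes). With narrower ranges of cells per state, they were 4 for dividing, 0 for late minus early and 1 for late minus resting (2729, 1082 and 3046 of 11972 genes). Igfbp5-high cells had 3 lower without doublet removal (1791 of 12107 genes) and 2 lower at 6 Igfbp5 UMIs (1173 of 11579 genes). Of the values of single genes recomputed with both pools, 4264 kept their direction and side of the threshold, 14 changed direction, 94 gained and 256 lost a call.

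The direction turned, with narrower ranges, for Rhob (0.087), Klf6 (0.10) and Cebpd (-0.54, adjusted p = 0.013 with edgeR) in early minus resting, and for Atf3 (-0.057), Rhob (-0.036), Klf6 (-0.087), Gadd45g (-0.32) and Maff (-0.15) in late minus early. Without scaling factors it turned in late minus resting for Mcl1 (-0.60), Gadd45b (-0.35), Rhob (-0.49) and Klf6 (-0.49). It turned for Nr4a2 in macrophage minus lens cells thinned to 1500 UMIs (-3.06) and for Cebpd at 6 Igfbp5 UMIs (-0.34). With 1 pool left out, which allows a value but no test or count, 771 values moved by no more than the SD of both replicates and 38 by more in the same direction; it turned for Nr4a2 in macrophage minus lens (-6.66 without replicate 1, 4.99 without replicate 2), Zfp36l1 in macrophage minus endothelial (-0.018 without replicate 2, 1.32 without replicate 1) and Gadd45b in late minus resting (-0.038 without replicate 1, 0.52 without replicate 2). Except for settings that change the cells or the factors themselves, the cause was not tested. Macrophage values rest on 49 cells, so that low members there could not be compared.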
